A study of Homo sapiens with 6 samples.

Results

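The genes described here encode 10 amino acid transporters other than the cystine exchanger xCT, namely SLC3A2, SLC7A5, SLC7A1, SLC1A4, SLC1A5, SLC38A1, SLC38A2, SLC6A9, SLC43A1 and SLC36A1. They were chosen by gene symbol, with earlier results of these data known, and are 10 of the 17687 genes in the deposited table. RNA-seq was performed on KHM-5M, a human cell line from an anaplastic thyroid cancer, grown in RPMI-1640 with fetal bovine serum. Control cells received PBS, SS cells received sodium selenite, and SS+NAC cells received sodium selenite together with N-acetylcysteine (NAC), a thiol antioxidant and cysteine precursor. Each group had 2 libraries, which the study's methods call biological replicates, and the labels do not say whether they came from separate cultures, so the p-values below measure only the spread between these libraries. The comparisons address which transcripts differ after selenite and which of these differences are seen when NAC is also present. The titles of the SS libraries carry the number 5 and those of the control libraries the number 0, both with no unit, and no dose or exposure time was taken from them. A group given NAC alone was not analysed here.

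The libraries held between 17645545 (control 1) and 23810056 (SS 2) expected counts, and the 10 transporters had between 199 counts (SLC43A1 in control 1) and 12696 counts (SLC7A5 in SS+NAC 1). All 10 passed the filter on low counts that left 14005 genes for testing. The cell line label was checked against marker genes in TPM, transcript levels that are corrected for length and sum to 1000000 in each library. The thyroid transcription factor PAX8 was listed at 104 to 134 TPM and HHEX at 25.9 to 29.8 TPM in the 6 libraries. The differentiation genes TG and SLC5A5 stayed under 1 TPM in every library, as did NKX2-1, while FOXE1 reached 1.59 TPM. Keratins KRT8 and KRT18 and the mesenchymal gene VIM were abundant, with VIM between 5744 and 6621 TPM, whereas CDH1 was at most 0.29 TPM and EPCAM at most 6.07 TPM. The leukocyte gene PTPRC was at most 0.77 TPM and the endothelial gene PECAM1 at most 0.44 TPM, although the macrophage gene CD68 was at 70.5 to 109 TPM, and among fibroblast genes COL1A1 was abundant while COL1A2 and COL3A1 were at most 0.04 TPM. A further keratin, KRT19, was at only 0.96 to 2.19 TPM. The line thus expressed PAX8, KRT8, KRT18 and vimentin, with very little TG or SLC5A5.

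Amino acids cross the plasma membrane through several families of solute carriers that differ in substrates and in coupling to sodium, protons or a second amino acid. Exchangers such as the heterodimer of the heavy chain SLC3A2 (4F2hc, CD98) and the light chain SLC7A5 (LAT1) trade an intracellular amino acid for a large neutral one, and depend on uniporters and sodium-coupled loaders to maintain the gradients they use. Many of these genes are known to be induced through the transcription factor ATF4 when amino acids are scarce, and SLC7A5 and SLC1A5 are often abundant in tumours.

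Promoters are shown for SLC3A2, SLC7A5 and SLC7A1, since each held one of the motifs searched and they did not all move in the same direction after selenite. SLC3A2 was higher in SS than in control, and SLC7A5 and SLC7A1 were both lower. With the length offset given below, none of these differences passed the threshold. The 250 bases before the start site were taken from RefSeq (GRCh38.p14), in which all 10 members had an entry. Capitals mark the motif matches. The SLC3A2 run is chr11:62881449-62881670 on the plus strand, inside an intron of longer SLC3A2 transcripts apart from its last 3 bases, which lie in an annotated exon, and it stops at the end of the motif. The SLC7A5 run is chr16:87869508-87869757 and the SLC7A1 run chr13:29595689-29595938, both on the minus strand and in no GENCODE release 29 gene.
SLC3A2: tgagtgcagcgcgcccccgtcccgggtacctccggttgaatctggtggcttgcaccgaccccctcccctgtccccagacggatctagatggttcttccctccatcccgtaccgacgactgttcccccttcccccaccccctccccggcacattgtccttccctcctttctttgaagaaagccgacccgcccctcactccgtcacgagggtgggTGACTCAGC
SLC7A5: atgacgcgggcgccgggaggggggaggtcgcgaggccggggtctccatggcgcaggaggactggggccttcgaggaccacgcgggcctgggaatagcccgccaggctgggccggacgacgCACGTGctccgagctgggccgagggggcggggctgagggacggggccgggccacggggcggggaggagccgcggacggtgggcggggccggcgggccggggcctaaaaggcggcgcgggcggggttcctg
SLC7A1: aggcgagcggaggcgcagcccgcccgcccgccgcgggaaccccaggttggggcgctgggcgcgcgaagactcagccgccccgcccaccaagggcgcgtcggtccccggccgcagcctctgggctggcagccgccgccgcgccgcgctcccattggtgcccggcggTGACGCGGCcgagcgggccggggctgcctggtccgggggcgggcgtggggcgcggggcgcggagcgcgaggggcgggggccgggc

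The motifs searched on both strands were TGATGNAA, the core of the C/EBP-ATF element bound by ATF4 dimers, CACGTG, the E-box, and TGACNNNGC, the core of the antioxidant response element. TGATGNAA was found in 0 of the 10 members' windows, against 3.14% of 35116 RefSeq promoter windows of the same length. CACGTG was found in 2 members, SLC7A5 and SLC43A1, against 6.34% of all windows. TGACNNNGC was found in SLC3A2, 37 to 29 bases before the start site, and in SLC7A1, 85 to 77 bases before it, against 10.9% of all windows. The SLC3A2 match TGACTCAGC also holds the letters TGACTCA of the AP-1 element. These matches describe letters in the windows only, and sequence outside the windows was not searched.

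Levels between genes were compared in TPM. In control cells SLC1A5 (ASCT2), a sodium-dependent exchanger of glutamine and other neutral amino acids, was the most abundant member at 276 ± 0.205 TPM (mean ± SD, n = 2 here and below), followed by SLC3A2 at 241 ± 16.8 and SLC7A5 at 158 ± 4.77 TPM. SLC38A1 (91.9 ± 2.73 TPM) and SLC38A2 (89.1 ± 4.16 TPM) came next and their libraries overlapped, with SLC7A1 just below at 81.3 ± 4.57 TPM. The remaining members were much lower, from SLC1A4 at 18.8 ± 1.02 through SLC36A1 at 11.8 ± 0.474 and SLC6A9 at 10.7 ± 0.396 to SLC43A1, listed at 9.02 and 8.97 TPM. Apart from the SLC38A1 and SLC38A2 pair, the libraries of neighbours in this order did not overlap in control.

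The order changed in part between groups. In SS cells the libraries of SLC1A5 (281 ± 5.34 TPM) and SLC3A2 (272 ± 9.89 TPM) overlapped at the top, those of SLC7A1 and SLC38A1 overlapped at 45.8 ± 1.90 and 43.8 ± 4.01 TPM, and SLC36A1 was lowest at 5.15 ± 0.714 TPM. SLC7A1, SLC38A1 and SLC36A1 have effective lengths of 7447, 7700 and 5662 bases. The order in SS thus carries the shift with transcript length given below, and its part was not tested. In SS+NAC cells SLC3A2 (365 ± 17.0 TPM) and SLC1A5 (359 ± 11.9 TPM) again overlapped, as did SLC38A2 with SLC38A1 and SLC38A1 with SLC7A1. SLC6A9, at 18.3 ± 0.325 TPM, stood above SLC36A1 there, whereas in control it stood below. TPM were not used to compare a gene between conditions, because the sum of FPKM over genes was 572635 and 592277 in the SS libraries and between 502654 and 515237 in the other libraries, which shifts every TPM value of a library.

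**Figure D1:**
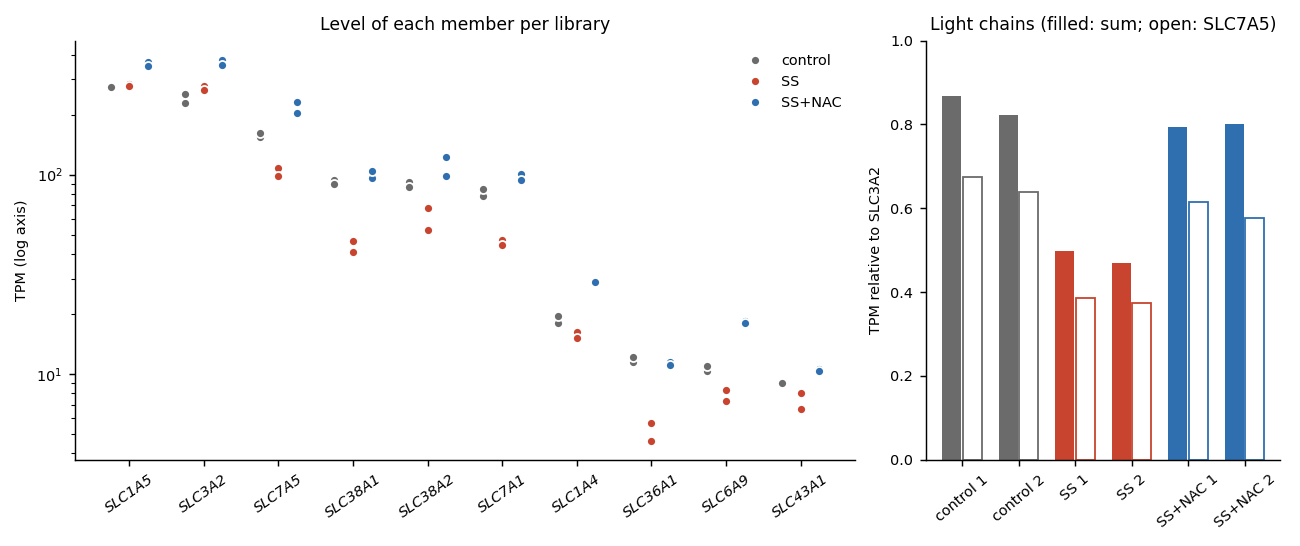
Left, TPM of each member in each library on a log axis, with genes ordered by their control mean. Right, summed TPM of the light chains that pair with SLC3A2 (filled bars) and of SLC7A5 alone (open bars) relative to SLC3A2 in each library; the filled bars were between 0.468 and 0.499 in the SS libraries and between 0.795 and 0.868 in the others.

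Conditions were compared in counts per 1000000 counts (CPM), scaled with TMM factors, and a gene was called at an edgeR quasi-likelihood adjusted p of at most 0.05, adjusted over all 14005 genes. SS and control were compared in 1 fit with SS+NAC, so each pair of comparisons shares libraries and their values are given side by side. Between SS and control 1 of the 10 members was called higher and 5 were called lower. Over all tested genes 40% were called, 18.6% higher and 21.4% lower, so calls were common in this comparison. Between SS and SS+NAC 0 members were called higher in SS, also 0 at an unadjusted p under 0.05 and 0 by DESeq2, and 7 were called lower, where 42.7% of all tested genes were called, 19.6% higher and 23.1% lower. Between SS+NAC and control 3 members were called higher and 0 lower, with 0 lower also at an unadjusted p under 0.05 and by DESeq2. In that comparison 2.01% of all genes were called, 1.36% higher and 0.657% lower. Of all 17687 genes, DESeq2 called 2504 higher between SS and SS+NAC and 135 lower between SS+NAC and control. The median log2 fold change of the members was -0.23 for SS against control, -0.66 for SS against SS+NAC and 0.28 for SS+NAC against control, and the medians over all tested genes were 0.00, -0.03 and 0.00. As these are bulk libraries scaled to their totals, the values are relative to each library and show neither the number of cells nor the RNA per cell.

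**Figure D2:**
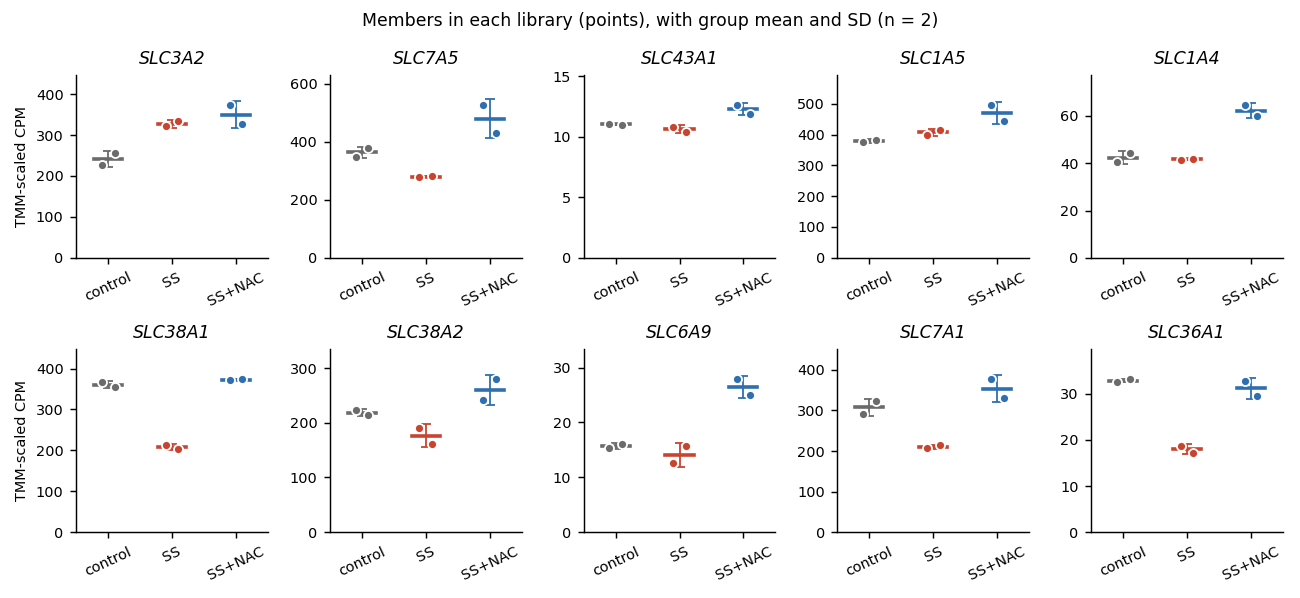
TMM-scaled CPM of the 10 members in each of the 6 libraries (points), with the mean and SD of each group of 2; every axis starts at 0. SLC38A1, SLC36A1 and SLC7A1 were lowest in both SS libraries, SLC6A9 and SLC1A4 were highest in both SS+NAC libraries, and SLC3A2 was lowest in both control libraries.

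The heavy chain and its most abundant light chain are described first. SLC3A2 (chr11:62856102-62888875, plus strand, GENCODE release 29 on GRCh38), which carries the light chains to the membrane, was at 227.3 and 255.4 CPM in control, 320.9 and 334.7 in SS and 373.2 and 327.0 in SS+NAC. Both treated groups lay above control and overlapped each other. SLC3A2 rose 1.36-fold in SS over control (log2 fold change 0.44, SE 0.0905, edgeR adjusted p = 0.00354) and 1.45-fold in SS+NAC over control (0.54, SE 0.0905, edgeR adjusted p = 0.0139). The value between SS and SS+NAC was -0.09 with an interval from -0.29 to 0.10 (edgeR adjusted p = 0.428). Without control replicate 1 the rise in SS was 0.36 (edgeR adjusted p = 0.0635) and that in SS+NAC 0.45 (edgeR adjusted p = 0.196), so both calls were lost without that library. With an offset for transcript length, given below, SLC3A2 stood at 0.25 in SS against control and was not called (edgeR adjusted p = 0.0833). With the same offset SLC3A2 stood at -0.26 in SS against SS+NAC, just short of a call (edgeR adjusted p = 0.0537).

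SLC7A5 (chr16:87830023-87869488, minus strand), the light chain that takes up leucine and other large neutral amino acids, was at 349 and 377 CPM in control, 277 and 280 in SS and 526 and 431 in SS+NAC. The SS libraries were the lowest, the SS+NAC libraries the highest, and no groups overlapped. Its transcript fell by 0.38 on the log2 scale in SS against control (SE 0.0981, edgeR adjusted p = 0.0110) and was lower in SS than in SS+NAC by a log2 fold change of -0.78 (SE 0.0982, edgeR adjusted p = 0.000378). SS+NAC was 1.32-fold above control (0.40, SE 0.0977), which did not pass the threshold in edgeR (adjusted p = 0.0732) but did in DESeq2 (0.38, adjusted p = 0.0104), in edgeR without SS+NAC replicate 2 (0.54, adjusted p = 0.00220) and with at least 10 counts asked of every library (0.41, adjusted p = 0.0485). The SS call was lost without control replicate 2 (edgeR adjusted p = 0.117), without SS replicate 1 (0.0511) and without SS replicate 2 (0.0567), and with the length offset, at -0.15 (edgeR adjusted p = 0.388). Of its 50-base stretches 5.55% are also found in SMG1P3, SLC7A5P2 or, on the opposite strand, AC126696.2. How far this shared sequence affects the SLC7A5 counts was not tested, so these counts are uncertain.

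Relative to the heavy chain, SLC7A5 stood at 0.675 and 0.638 in control, 0.386 and 0.373 in SS, and 0.615 and 0.576 in SS+NAC, as ratios of TPM within a library. The known light chains of SLC3A2, a set chosen after the values had been seen and found for 5 of 7 genes in the table (SLC7A5, SLC7A6, SLC7A7, SLC7A8 and SLC7A11), summed to 0.868 and 0.822 of SLC3A2 in control. The sum was 0.499 and 0.468 in SS and 0.795 and 0.800 in SS+NAC. Both ratios were lowest in the SS libraries, without overlap, and no test was run on them. They set SLC7A5, with an effective length of 4491 bases, against SLC3A2, with 1964 bases, and so carry the shift with transcript length in the SS libraries that is given below. SLC7A5 made up 72.0% to 79.5% of the light-chain TPM in the 6 libraries. SLC7A11, the xCT light chain, was at 32.8 and 36.1 CPM in control, 22.8 and 23.3 in SS and 133 and 168 in SS+NAC, and its share of the light-chain TPM was 3.36% and 3.46%, 2.85% and 2.96%, and 9.04% and 13.0%, respectively. SLC7A11 was called lower in SS than in control at -0.58, but stood at -0.04 and was not called with the length offset. Against SS+NAC it stood at -2.71, or -2.19 with the offset, and was called lower in both.

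SLC43A1 (LAT3, chr11:57484534-57515786, minus strand), a facilitated transporter of branched-chain amino acids that needs no heavy chain, was at 11.1 and 11.0 CPM in control, 10.9 and 10.4 in SS and 12.6 and 11.9 in SS+NAC. The groups lay close together and the gene was called in no comparison. Its log2 fold change for SS against control was -0.05, with an interval from -0.30 to 0.19 (edgeR adjusted p = 0.741), and those for SS against SS+NAC and SS+NAC against control were -0.21 and 0.16.

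Among the sodium-dependent neutral exchangers, SLC1A5 (chr19:46774883-46788594, minus strand) was at 375 and 383 CPM in control, 400 and 414 in SS and 496 and 445 in SS+NAC. The groups formed a series from control through SS to SS+NAC without overlap, yet no difference passed the threshold in edgeR. The log2 fold changes were 0.10 for SS against control (edgeR adjusted p = 0.333), -0.21 for SS against SS+NAC (edgeR adjusted p = 0.0560) and 0.31 for SS+NAC against control (edgeR adjusted p = 0.0877). DESeq2 called the last of these (0.29, adjusted p = 0.0270), and without SS+NAC replicate 2 edgeR called SS against SS+NAC (-0.29, adjusted p = 0.0187) and SS+NAC against control (0.39, adjusted p = 0.0279). Of the 50-base stretches in SLC1A5 coding transcripts, 21.3% are also found on the opposite strand in the antisense gene AC008622.2. The strand used in counting was not given in the sources used here. How far the shared sequence affects the SLC1A5 counts was not tested, so these counts are uncertain.

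SLC1A4 (ASCT1, chr2:64988477-65023865, plus strand), an exchanger of alanine, serine, cysteine and threonine, was at 40.4 and 44.2 CPM in control, 41.5 and 41.8 in SS and 64.6 and 60.0 in SS+NAC. Control and SS overlapped, and both SS+NAC libraries stood above all others. SLC1A4 rose 1.47-fold in SS+NAC over control (log2 fold change 0.56, SE 0.0799, edgeR adjusted p = 0.00585) and was lower in SS than in SS+NAC (-0.58, SE 0.0794, edgeR adjusted p = 0.000499). The log2 fold change between SS and control was -0.02, with an interval from -0.20 to 0.16, and its sign differed between settings. Without control replicate 1 the rise in SS+NAC over control was 0.49 (edgeR adjusted p = 0.0896).

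The sodium-coupled loaders SLC38A1 and SLC38A2, which concentrate glutamine, alanine and other small neutral amino acids, lie on the minus strand of chromosome 12 at chr12:46183063-46270017 and chr12:46358189-46372867. SLC38A1 (SNAT1) was at 367 and 355 CPM in control, 213 and 204 in SS and 372 and 374 in SS+NAC. Control and SS+NAC were close together and both SS libraries far below them. SLC38A1 fell by 0.79 in SS against control (SE 0.0727, edgeR adjusted p = 0.000102) and stood at -0.84 in SS against SS+NAC (SE 0.0726, edgeR adjusted p = 0.000108). SS+NAC differed from control by 0.05, with an interval from -0.11 to 0.21 (edgeR adjusted p = 0.788). Its calls were kept with Bonferroni adjustment and without any single library, and also with the length offset, although the values were then -0.33 against control and -0.39 against SS+NAC.

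SLC38A2 (SNAT2), known for its induction when amino acids are withdrawn, was at 224 and 214 CPM in control, 191 and 162 in SS and 241 and 279 in SS+NAC. The SS libraries were the lowest and spread more than those of control. SLC38A2 fell by 0.31 in SS against control (SE 0.0997, edgeR adjusted p = 0.0307) and was lower in SS than in SS+NAC (-0.56, SE 0.0994, edgeR adjusted p = 0.00160), while SS+NAC against control gave 0.25 (edgeR adjusted p = 0.253). The first call was lost without control replicate 1 (edgeR adjusted p = 0.163), control replicate 2 (0.106) or SS replicate 2 (0.232), and SS+NAC against control was called without SS+NAC replicate 1 (0.35, edgeR adjusted p = 0.0344). With the length offset SLC38A2 stood at -0.04 in SS against control and was not called (edgeR adjusted p = 0.818).

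SLC6A9 (GLYT1, chr1:43991500-44031467, minus strand), which imports glycine with sodium and chloride, was at 15.3 and 16.1 CPM in control, 12.6 and 15.7 in SS and 27.9 and 25.1 in SS+NAC. Control and SS overlapped, and the SS+NAC libraries lay well above both. SLC6A9 rose 1.68-fold in SS+NAC over control (log2 fold change 0.75, SE 0.116, edgeR adjusted p = 0.00944) and was lower in SS than in SS+NAC (-0.91, SE 0.116, edgeR adjusted p = 0.000404), the largest member differences in these comparisons. Between SS and control it stood at -0.16 (edgeR adjusted p = 0.334), and from -0.33 to -0.01 without 1 library. Without control replicate 1 the rise was 0.72 (edgeR adjusted p = 0.0726), so that none of the 3 members called between SS+NAC and control was called without that library. Of its 50-base stretches 5.72% lie on the opposite strand in CCDC24, which was at 4.22 and 4.43 CPM in control, 4.88 and 6.85 in SS and 4.76 and 4.44 in SS+NAC.

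The cationic transporter SLC7A1 (CAT1, chr13:29509410-29595688, minus strand), which brings in arginine, lysine and ornithine, was at 292 and 323 CPM in control, 207 and 214 in SS and 377 and 330 in SS+NAC. Both SS libraries were below all others, and the SS+NAC libraries were above control. SLC7A1 fell by 0.55 in SS against control (SE 0.0886, edgeR adjusted p = 0.00104) and stood at -0.75 in SS against SS+NAC (SE 0.0885, edgeR adjusted p = 0.000302), while SS+NAC against control gave 0.20 (edgeR adjusted p = 0.300). SLC7A1 stood at -0.09 in SS against control with the length offset and was not called (edgeR adjusted p = 0.579). The proton-coupled transporter SLC36A1 (PAT1, chr5:151437046-151492381, plus strand), found at lysosomes and at the plasma membrane, was at 32.6 and 33.2 CPM in control, 18.8 and 17.3 in SS and 32.7 and 29.6 in SS+NAC. Its SS libraries were also the lowest, and control and SS+NAC overlapped. SLC36A1 fell by 0.87 in SS against control, the largest change of a member there (SE 0.0909, edgeR adjusted p = 0.000164), and stood at -0.79 in SS against SS+NAC (SE 0.0901, edgeR adjusted p = 0.000265).

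**Figure D3:**
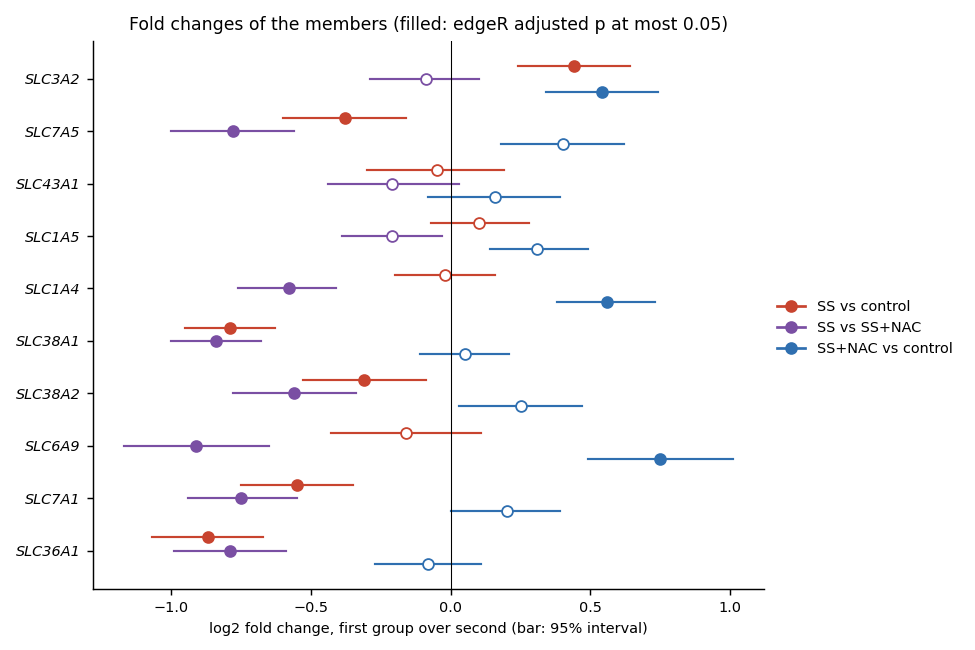
Log2 fold change of each member in the 3 comparisons, with its 95% interval; filled points had an edgeR adjusted p of at most 0.05. SLC6A9 and SLC1A4 sat near 0 between SS and control and apart from 0 in both comparisons with SS+NAC, while SLC38A1 and SLC36A1 sat near 0 between SS+NAC and control.

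Transcript length moved with the SS libraries. Over 13915 tested genes with an effective length, the length available to reads, Spearman's rho between length and log2 fold change was -0.69 for SS against control, -0.64 for SS against SS+NAC and -0.04 for SS+NAC against control, a description across genes that are not independent replicates. The 1740 shortest genes had a median deviation from their own mean of 0.24 and 0.37 on the log2 scale in the SS libraries and between -0.18 and -0.12 in the others, and the 1740 longest had -0.27 and -0.34 in SS and between 0.13 and 0.17 in the others. The members ran from SLC3A2 with 1964 bases to SLC38A1 with 7700, and rho over the 10 members was -0.89, -0.66 and -0.54 in the 3 comparisons.

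An offset for length in each library changed several values. As given above, SLC3A2, SLC7A5, SLC7A1 and SLC38A2 were not called with it between SS and control. SLC38A1 at -0.33 (edgeR adjusted p = 0.0108) and SLC36A1 at -0.52 (0.00716) were still called lower, so that the 2 calls left were both lower, where 4.32% of all genes were called higher and 5% lower. Against SS+NAC the same 7 members were called lower as without the offset, with log2 fold changes from -0.30 (SLC38A2) to -0.88 (SLC6A9), beside 7.08% of all genes called higher and 7.31% lower. SLC6A9, with 2940 bases, moved least of the 7. Between SS+NAC and control the same 3 members were called higher, at 0.74 for SLC6A9, 0.56 for SLC1A4 and 0.52 for SLC3A2, beside 1.35% of all genes called higher and 0.664% lower. The part of transcript length in the differences of SS was not tested beyond these values. The study's methods name a Bonferroni correction, under which SLC38A1 and SLC36A1 were called between SS and control, SLC38A1 between SS and SS+NAC, and no member between SS+NAC and control.

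**Figure D4:**
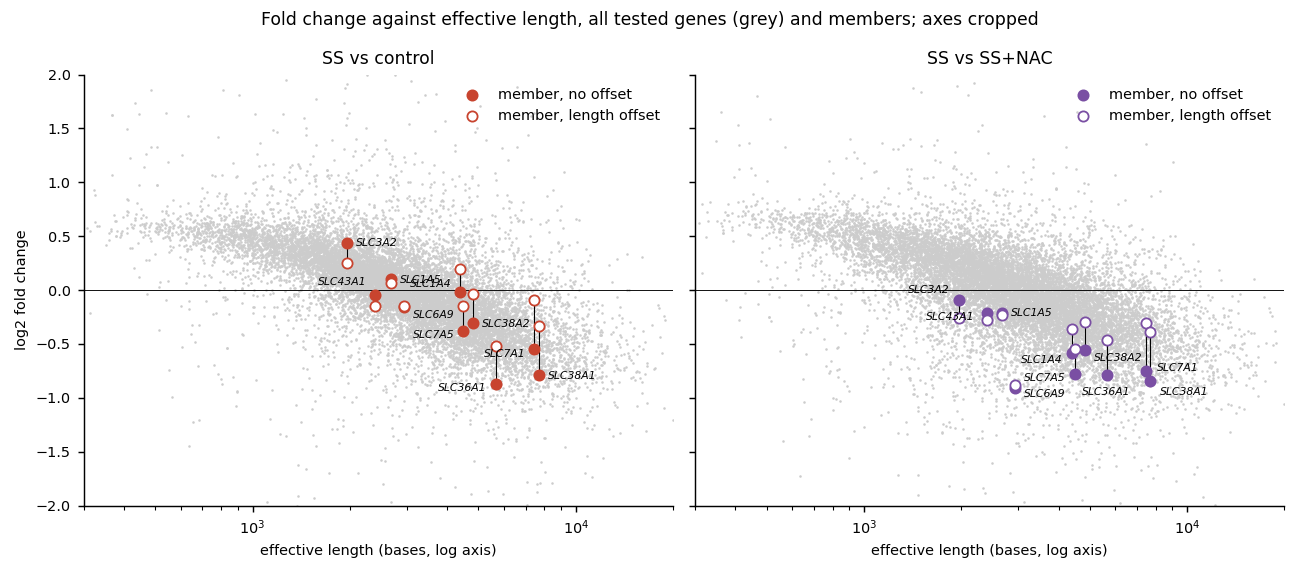
Log2 fold change against effective length (log axis) for all tested genes (grey) and the members, without (filled) and with (open) the length offset, for SS against control and SS against SS+NAC; points beyond the axes are not drawn. Shorter genes tended to lie above 0 and longer genes below, with rho of -0.69 and -0.64, and the offset moved SLC7A1 from -0.55 to -0.09 in the left panel but SLC6A9 only from -0.91 to -0.88 in the right.

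Genes with the most similar pattern were those with the smallest root mean square (RMS) difference in log2 CPM over the 6 libraries, each gene centred on its own mean. Near to SLC3A2 were REXO5 (RMS 0.0688), ALAS1 (0.0745), OSCAR (0.0781) and MLLT11 (0.0837). Those nearest to SLC7A5 were DGKG (0.0455), NPIPB3 (0.0678), C17orf51 (0.0732), ALPK2 (0.0815) and FAM102A (0.0873). For SLC6A9 they were MAP1A (0.0926), ALPK2 (0.0973), SLC6A6 (0.118), TRIB3 (0.129) and TMEM268 (0.143), so ALPK2 was near both of the latter. Among pairs of members the closest were SLC38A1 with SLC36A1 (0.0728), SLC1A5 with SLC43A1 (0.0837) and SLC7A5 with SLC7A1 (0.0919).

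The other plasma membrane amino acid transporters listed were 33 genes, of which 26 were in the table and 16 were tested. Between SS and control 1 was called higher and 4 lower, beside 18.6% and 21.4% of all genes, with a median log2 fold change of -0.13. The cationic transporter SLC7A2 fell by 0.71, from 50.1 and 48.0 CPM in control to 32.4 and 27.7 CPM in SS. SLC7A6, another light chain of SLC3A2, fell by 0.51, SLC36A4 fell by 0.43 and SLC6A15 fell by 0.31. The gene called higher was SLC38A3, with means of 0.280 (control) and 0.690 CPM (SS), a level under the minimum set for naming and given after its value was seen. With the length offset, SLC43A2 (0.53, against 0.03 without it) was the 1 gene called, beside 4.32% of all genes called higher and 5% lower. Genes that only the offset brought out were picked after their values were seen, here and below. Between SS and SS+NAC 6 were called lower in SS, beside 23.1% of all genes, against 4 by DESeq2 and 2 with the length offset (SLC6A6 and SLC6A15), beside 7.31% of all genes with that offset. DESeq2 called 2362 of all 17687 genes lower there. Between SS+NAC and control 1 gene was called higher, beside 1.36% of all genes, the taurine transporter SLC6A6, at 44.3 and 50.0 CPM in control, 44.6 and 42.9 in SS and 83.3 and 79.4 in SS+NAC. Its log2 fold change was 0.79 over control (edgeR adjusted p = 0.000633), next to the 0.75 of SLC6A9.

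Transporters of internal membranes were listed apart from the members. Of 7 lysosomal amino acid transporters tested, 0 were called in any of the 3 comparisons in edgeR or DESeq2, beside 40%, 42.7% and 2.01% of all genes in edgeR, and between SS and control 0 had an unadjusted p under 0.05, against 1 in each of the other comparisons. Their median log2 fold changes lay between -0.05 and 0.00. Of 11 mitochondrial carriers tested, 1 was called lower between SS and control, the carrier of branched-chain amino acids SLC25A44, which fell by 0.30, and 2 were called higher between SS and SS+NAC, SFXN3 (0.32) and SLC25A38 (0.23), where 21.4% of all genes were lower in the former and 19.6% higher in the latter comparison. Of these calls only that of SFXN3 was kept with the length offset. With that offset 7.08% of all genes were called higher between SS and SS+NAC, and 5% lower between SS and control. Between SS+NAC and control 0 were called in edgeR or DESeq2, beside 2.01% of all genes in edgeR, with 1 at an unadjusted p under 0.05.

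Of 15 regulators of the amino acid response tested, 4 were called higher and 3 lower between SS and control, beside 18.6% and 21.4% of all genes, with a median of -0.01. The transcription factor ATF4 was at 577 and 608 CPM in control, 801 and 812 in SS and 728 and 710 in SS+NAC, and rose by 0.44 in SS. ATF3 rose by 1.35 and CEBPB by 0.56, and DDIT3 was also called higher. Lower were 3 kinases that phosphorylate eIF2 alpha, namely the amino acid sensor EIF2AK4 (-0.51), EIF2AK2 (-0.44) and EIF2AK3 (-0.40). With the length offset the 4 called genes were all higher, beside 4.32% of all genes, namely ATF3, DDIT3, CEBPB and GCN1, and ATF4 was not among them. Between SS+NAC and control ATF3, DDIT3, CEBPB and TRIB3 were called higher and EIF2AK4 lower, beside 1.36% and 0.657% of all genes. TRIB3, near to SLC6A9 in pattern, stood at 0.93 there and at 0.11 between SS and control. With the length offset, the 4 higher calls between SS+NAC and control were kept and that of EIF2AK4 was lost, beside 1.35% and 0.664% of all genes. Between SS and SS+NAC 1 regulator (ATF5) was called higher and 8 were called lower, beside 19.6% and 23.1% of all genes, while the length offset gave GCN1 (0.46) as the 1 higher and CEBPB, DDIT3, NUPR1 and TRIB3 as the 4 lower, beside 7.08% and 7.31%.

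The targets of this response did not all move alike. Of 12 tested, 7 were called higher and 1 lower between SS and control, beside 18.6% and 21.4% of all genes, with a median of 0.26, and 9 were called higher and 0 lower between SS+NAC and control, beside 1.36% and 0.657%, with a median of 0.75 and 0 lower also at an unadjusted p under 0.05 and by DESeq2. DDIT4, an inhibitor of mTORC1 signaling, was at 14.1 and 14.5 CPM in control, 35.6 and 24.3 in SS and 65.2 and 83.7 in SS+NAC, and rose by 1.07 in SS and by 2.38 in SS+NAC over control. The glutathione-degrading enzyme CHAC1 rose by 0.65 and 1.80 and asparagine synthetase ASNS by 0.45 and 0.65 in the same comparisons. CTH and SESN2 rose by 1.68 and 1.60 in SS+NAC over control and were not called between SS and control. PHGDH, the first enzyme of serine synthesis, rose by 0.42 in SS, and VLDLR fell by 0.47 in SS but was higher in SS+NAC than in control by 0.84. Between SS and SS+NAC 1 target (PHGDH) was called higher and 8 lower in SS, among them SESN2 at -1.51 and CTH at -1.60, beside 19.6% and 23.1% of all genes, and the length offset gave 10 lower, beside 7.31%, and lost the call of PHGDH. The medians of the members and of this list between SS and control were -0.23 and 0.26, or -0.12 and 0.22 with the length offset, with no test run between them and median effective lengths of 4444 and 2324 bases. With the length offset 3 targets were called between SS and control, all higher (DDIT4, CHAC1 and STC2), beside 4.32% of all genes.

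Among genes through which amino acids signal to mTORC1, 31 were tested, 9 of them called higher and 6 lower between SS and control, 15 in all beside 40% of all genes, with a median of 0.00. Higher were the Ragulator subunits LAMTOR4 (0.56) and LAMTOR2 (0.52), the arginine sensor homologue CASTOR2 (0.47) and the GTPase RRAGA (0.47). Lower were the folliculin partners FNIP2 (-0.60) and FNIP1 (-0.33), the methionine-related BMT2 (-0.55) and the kinase MTOR (-0.48). CASTOR2 was also called higher with the length offset. Between SS and SS+NAC 9 were called higher and 6 lower, beside 19.6% and 23.1% of all genes, and the length offset left CASTOR2 and RRAGA higher and FNIP2 lower, beside 7.08% and 7.31%. Between SS+NAC and control 0 were called in edgeR or DESeq2, beside 2.01% of all genes in edgeR, with 4 higher and 2 lower at an unadjusted p under 0.05.

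**Figure D5:**
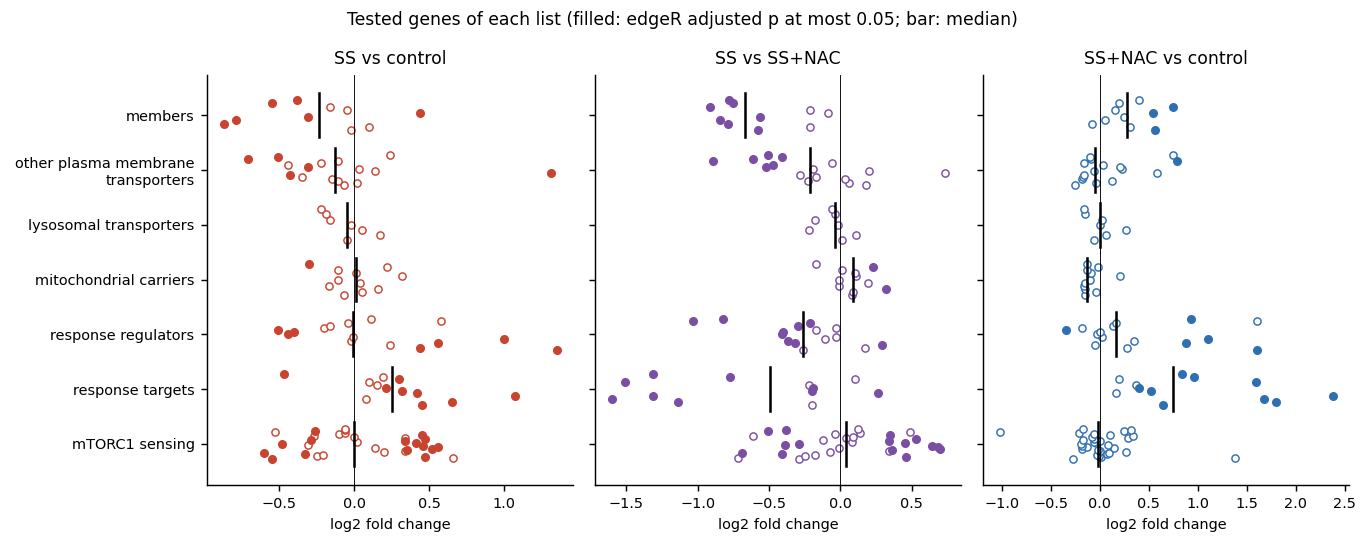
Log2 fold change of every tested gene of the members and of 6 other lists in the 3 comparisons; filled points had an edgeR adjusted p of at most 0.05 and black bars are medians. The members' bar lies at -0.23, -0.66 and 0.28, and that of the response targets at 0.26, -0.50 and 0.75.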

How the data were processed

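RNA-seq of 6 libraries, 2 each of control, SS and SS+NAC, was analysed from the deposited table of 17687 genes and 95 columns. Per the authors' notes, reads were filtered with SOAPnuke and aligned with HISAT2 2.0.4 and Bowtie2 2.2.5, and the deposited expected counts were estimated with RSEM 1.2.12, so that 44.8% of them were more than 0.005 away from a whole number. The authors also deposited FPKM, counts divided by effective transcript length and depth, and these served here to derive the effective lengths. The authors deposited TPM, which correct for length and sum to 1000000 in each library, and these served here for levels between genes only. The deposited group means, fold changes, p-values and q-values were not used.

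Expected counts were rounded and fitted with edgeR 4.0.16 (R 4.3.3) in 1 quasi-likelihood model of all 6 libraries, after filterByExpr (14005 genes kept) and with TMM factors, and p-values were adjusted over all tested genes with the Benjamini-Hochberg method. The biological coefficient of variation was 6.74%, and intervals are at 95%. Library totals were 17645545 and 22016655 (control), 23493415 and 23810056 (SS) and 23682740 and 22617180 (SS+NAC), and the chi-square per degree of freedom between the replicates of a group was 2.78, 6.28 and 10.3, in the same order, so they were treated as replicates. The labels do not pair the replicates.

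Alternatives were Bonferroni adjustment, DESeq2 1.42.0 (size factors and Wald test), no filter on low counts or at least 10 counts in every library, the replicate number as a block, only the compared libraries, each library left out, and a length offset for each library (lowess, span 0.3, on log effective length; 90 tested genes had no length). The scripts were tested on simulated data. Tables and figures were made with Python 3.11.15, pandas 2.3.3, numpy 2.4.6, scipy 1.17.1 and matplotlib 3.10.9. Gene coordinates came from GENCODE release 29 (GRCh38) and promoters from RefSeq (GRCh38.p14). Stretches of 50 bases shared between genes were searched in GENCODE transcripts.

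Members and lists were chosen with earlier results of these data known. All members are named. From each other list, genes were named from the 4 with the largest log2 fold change among those called, in each direction. At least 1 compared group had to have a mean of at least 1 CPM. Not all of these genes are given in every comparison, and some named in 1 comparison are also given in another. For SLC3A2, SLC7A5 and SLC6A9, genes were named among the 5 nearest in pattern, of 9775 with a group mean of at least 10 CPM.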

Additional observations from a re-analysis of the deposited data

How the results depend on the processing

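Of 420 values of single members under other settings, 381 kept their direction and their side of the threshold, 28 fell short of it, 7 passed it anew and 4 reversed. The reversed values were SLC1A4 in SS against control, at 0.01 with at least 10 counts in every library, 0.20 with the length offset and 0.07 without control replicate 2, and SLC3A2 in SS against SS+NAC, at 0.00 without SS+NAC replicate 1; none of these was called in any setting. Called genes numbered 5609 in SS against control, 220 with Bonferroni adjustment and 1305 with the length offset; 5985 in SS against SS+NAC, 191 and 2015; and 282 in SS+NAC against control, 40 with Bonferroni adjustment. With Bonferroni adjustment 0 members were called higher and 2 lower in SS against control, 1 lower in SS against SS+NAC and 0 higher in SS+NAC against control, as the threshold is stricter. With the length offset 0 members were higher and 2 lower in SS against control, and the medians of the members were -0.12 there and -0.34 against SS+NAC. The median in SS against control was -0.20 with at least 10 counts in every library. DESeq2 called 5 members higher in SS+NAC against control, beside 176 of all 17687 genes. Among the lists, in SS against control, the other plasma membrane transporters had 3 calls with DESeq2 and 1 with the length offset, against 5, and with the length offset there were 0 mitochondrial calls against 1, 4 regulator calls against 7, 3 target calls against 8 and 2 mTORC1 calls against 15. Of all 17687 genes DESeq2 called 2118 higher and 2504 lower in SS against control. With the replicate block 4857, 5136 and 211 genes were called in the 3 comparisons, the other plasma membrane transporters had 3 calls in SS against control, and SLC38A2 (-0.31, edgeR adjusted p = 0.0527) was the only call of a member lost; the deviations of equally numbered libraries had correlations of 0.113, -0.175 and -0.105. The crossed pairing, chosen after seeing the data, called 7151, 7286 and 1475 genes. With 1 library left out, where the lone library is assumed to vary like the other groups, called genes ranged from 3118 to 6579, from 3250 to 6339 and from 98 to 1086, members called higher in SS against control from 0 to 1 and lower from 3 to 5, members lower in SS against SS+NAC from 7 to 8, and members higher in SS+NAC against control from 0 to 5. The members' medians ranged from -0.26 to -0.19, from -0.74 to -0.64 and from 0.24 to 0.34, SLC1A4 in SS against control from -0.09 to 0.07 and SLC3A2 in SS against SS+NAC from -0.19 to 0.00. Except where stated, the cause was not tested. SLC43A1 had the fewest counts of the members in every library.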
